A study of Drosophila melanogaster with 10 samples.

Results

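The basement membrane genes described here are vkg, Cg25C, LanA, LanB1, LanB2, trol, Ndg and SPARC, chosen by name and not by their levels. All 8 were found among the 7987 genes of the deposited table, and all 8 passed the filter on low values, which asked for 2 or more libraries at a value of 1 or above. SPARC stands in the table as BM-40-SPARC, and Cg25C is now called Col4a1. RNA was sequenced from pooled wing imaginal discs, the larval epithelial sacs that form the adult wing and notum, at the third larval instar. The 10 libraries came from 4 genotypes, and the study asked how the transcriptome of discs with tumorous growth differed from that of discs carrying either genetic change alone.

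Every genotype carried Gal4 under the apterous (ap) enhancer, which drives UAS transgenes in the dorsal compartment of the disc, together with UAS GFP and Gal80ts, a temperature-sensitive Gal4 inhibitor. The control was ap>UAS GFP; Gal80ts (2 libraries, here ap > GFP), which by the study's methods held a further copy of GFP. Discs with ap>UAS GFP, UAS NelfA RNAi; Gal80ts (2 libraries, ap > NelfAi) were depleted of Nelf-A, a subunit of the negative elongation factor that holds RNA Pol II in the paused state near promoters. Discs with ap>UAS GFP; UAS Yki, Gal80ts (3 libraries, ap > Yki) overexpressed Yorkie, the transcriptional coactivator of the Hippo pathway, and were labelled as mildly overgrown. The remaining 3 libraries (ap > Yki+NelfAi) combined UAS NelfA RNAi with UAS Yki over the same ap>UAS GFP and Gal80ts background and were labelled as neoplastic, and are called tumorous below. Whole discs were sequenced, so the ventral compartment and the other cells attached to a disc contributed RNA that the driver did not reach, and the number of discs pooled differed between genotypes.

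The basement membrane is the sheet of extracellular matrix on the basal side of an epithelium. Laminin, a trimer of an alpha, a beta and a gamma chain, is laid down first and binds cell surface receptors, collagen IV forms a covalently linked network that gives the sheet its tensile strength, and nidogen and the heparan sulfate proteoglycan perlecan join the layers. In the larva most collagen IV is made by the fat body and reaches the disc through the hemolymph, whereas laminins are also made by the disc itself. SPARC is a collagen-binding glycoprotein that collagen IV-producing cells need for its proper secretion and deposition.

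The values below are reads on a gene divided by a factor of the library, so that libraries are comparable, and 6990931 to 13065642 reads per library fell on genes. The transgenes were checked first. Nelf-A was at 40.4 and 36 in ap > GFP, at 28.1, 31.9 and 39.4 in ap > Yki and at 17.1, 15.8 and 16.9 in ap > Yki+NelfAi. Of the ap > NelfAi libraries, replicate 1 had 11.4 and the library labelled replicate 2 had 32.9. On this scale the latter is a level also seen where no RNAi construct was present. Results resting on ap > NelfAi are therefore given by label and with each of its libraries left out where that changed a call. The gene yki was at 75 to 307 without the UAS Yki transgene, at 2637 to 4007 in ap > Yki and at 8143 to 11377 in ap > Yki+NelfAi. Between the last 2 genotypes yki was called higher with the RNAi construct (log2 fold change 1.56, SE 0.315, adjusted p = 0.00905, limma). Comparisons of the tumorous discs with ap > Yki therefore differ in yki level as well as in the construct. All 16 markers listed for the wing disc epithelium were in the table, with summed values of 441 to 1263 per library. Libraries also differed in how their values moved with transcript length. Over 7735 genes, Spearman's rho between transcript length and a gene's deviation from its mean was -0.66 in ap > NelfAi replicate 1, 0.49 in ap > NelfAi replicate 2 and 0.47 in ap > Yki replicate 3, and it lay between -0.21 and 0.29 in the other 7 libraries. With each library's trend removed, Nelf-A came to 18.3 and 26.1 in ap > NelfAi replicates 1 and 2. Both lay below the 34.8 to 37.3 of ap > GFP and the 31.1 to 33.2 of ap > Yki. The labels do not say whether replicates were separate crosses, so the p-values measure the spread between these pools of discs.

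Of the 8 genes, vkg, Cg25C, LanB2 and SPARC were called lower in the tumorous discs than in ap > GFP. A call means an adjusted p under 0.05 in limma and a change of at least 1.5-fold, and 12.1% of all 7858 genes tested were called lower in this comparison (22.1% in either direction). Against ap > Yki, vkg, Cg25C and SPARC were called lower, 3 of the 8 genes where 10.2% of all genes were called lower and 17.4% in either direction. No member was called in ap > Yki or in ap > NelfAi against ap > GFP.

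vkg and Cg25C encode the collagen IV chains and lie head to head on chromosome arm 2L, vkg at chr2L:5012144-5028191 on the minus strand and Cg25C at chr2L:5029609-5037279 on the plus strand (dm6), with 1417 bases between them. The vkg value was 8.38 and 6.31 in ap > GFP, 5.96 and 8.94 in ap > NelfAi, and 7.92, 6.41 and 13.5 in ap > Yki. In the tumorous discs it was 2.61, 2.74 and 3.39, below every other library. These are low levels, since the tumorous values rest on 40 to 68 reads and the ap > GFP values on 117 and 131. Cg25C followed the same order of genotypes except for ap > GFP and ap > NelfAi, whose ranges overlapped for both chains, as did those of ap > Yki. Its value was 10.3 and 8.58 in ap > GFP, 7.47 and 9.98 in ap > NelfAi, 11.3, 8.41 and 20.02 in ap > Yki, with 2.89, 3.7 and 4.19 in the tumorous discs. The highest value of either chain was in ap > Yki replicate 3, and no tumorous library overlapped with any other genotype.

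Both chains fell in the tumorous discs by similar amounts. Against ap > GFP, vkg fell 2.29-fold (log2 fold change -1.20, SE 0.32, adjusted p = 0.025, limma) and Cg25C 2.44-fold (-1.29, SE 0.33, adjusted p = 0.0228, limma). Against ap > Yki, vkg fell 2.75-fold (-1.46, SE 0.28, adjusted p = 0.00765, limma) and Cg25C 3.18-fold (-1.67, SE 0.30, adjusted p = 0.00515, limma). The calls against ap > Yki were kept when any of the 10 libraries was left out. Where this leaves ap > GFP or ap > NelfAi with 1 library, the spread comes from the remaining genotypes. Those against ap > GFP were lost, in limma, for vkg without ap > GFP replicate 1 (adjusted p = 0.183) or 3 (0.0817) and without ap > Yki+NelfAi replicate 1 (0.0707) or 2 (0.0741), and for Cg25C without the same libraries (0.153, 0.095, 0.0706 and 0.0596). In ap > Yki against ap > GFP, the log2 fold changes were 0.26 (SE 0.32) for vkg and 0.38 (SE 0.33) for Cg25C, with adjusted p = 0.751 and 0.63 in limma.

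**Figure D1:**
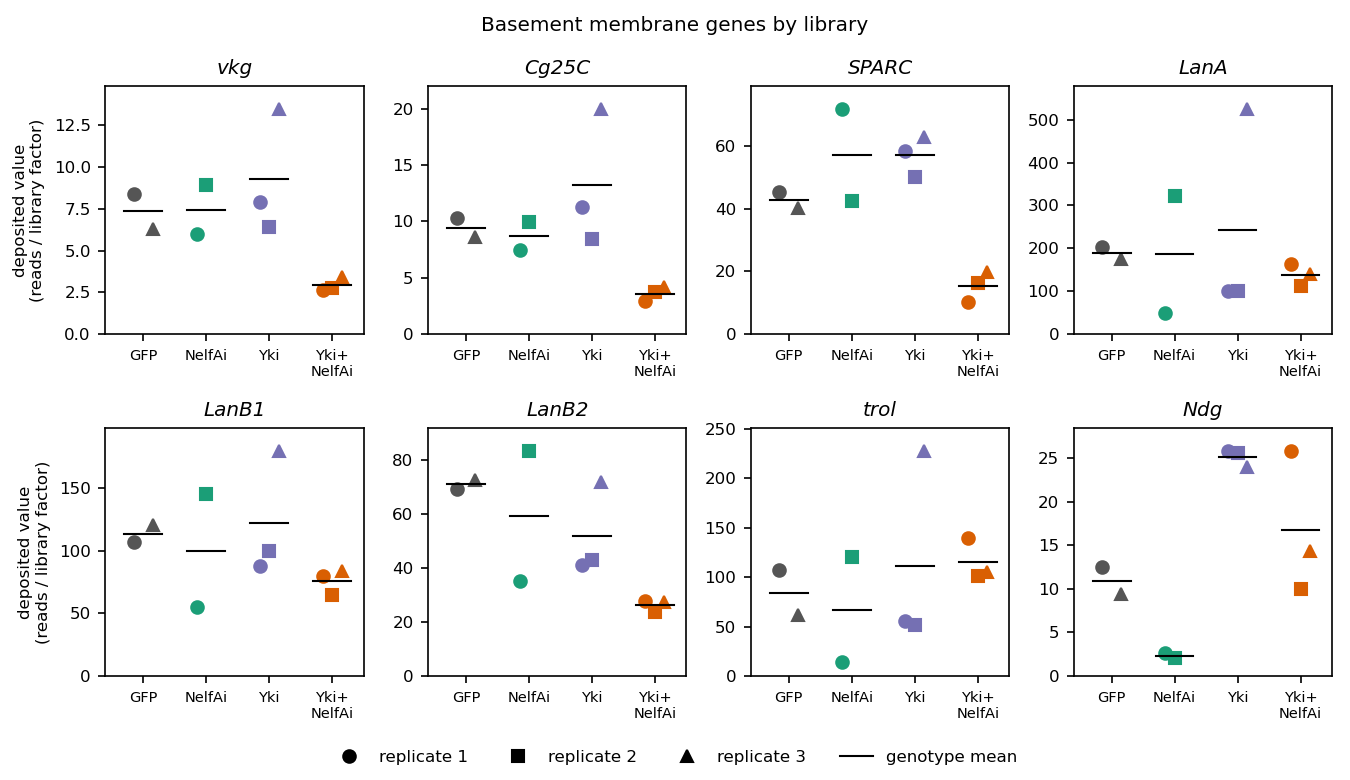
Value of each gene (reads divided by the library factor, linear axes from 0) in every library, by genotype, with the replicate number as the marker shape and the genotype mean as a line. The tumorous libraries (Yki+NelfAi) sit at 2.61 to 3.39 for vkg, 2.89 to 4.19 for Cg25C and 10.1 to 19.95 for SPARC, below all others, while LanA and trol spread widely within ap > NelfAi and ap > Yki.

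SPARC (chr3R:26869238-26871995, minus strand, dm6) had the largest fitted fall of the 8 genes in both comparisons. Against ap > GFP it lay within the error of the other called members, and against ap > Yki within that of Cg25C. Against ap > Yki the log2 fold changes of SPARC and Cg25C were -1.902 and -1.894 in edgeR and -1.91 and -1.904 in DESeq2. Its value was 45.2 and 40.4 in ap > GFP, 72 and 42.6 in ap > NelfAi, and 58.3, 50.2 and 62.8 in ap > Yki. In the tumorous discs it was 10.1, 16.2 and 19.95, and the highest of these is below the lowest value elsewhere. The fall was 2.82-fold against ap > GFP (log2 fold change -1.49, SE 0.31, adjusted p = 0.00815, limma) and 3.74-fold against ap > Yki (-1.90, SE 0.28, adjusted p = 0.00182, limma). The call against ap > GFP was lost without ap > GFP replicate 1 (adjusted p = 0.0725) or 3 (0.0528) in limma, whereas that against ap > Yki was kept without any one library. The ap > Yki values lay above both ap > GFP values, a change of 0.41 on the log2 scale (SE 0.31) that was not called (adjusted p = 0.566, limma).

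LanB2, LanB1 and LanA encode the gamma chain, the beta chain and an alpha chain of laminin. LanB2 (chr3L:9614914-9623980, plus strand, dm6) was at 69.2 and 72.5 in ap > GFP, 35 and 83.4 in ap > NelfAi, 40.9, 43 and 71.8 in ap > Yki, with 27.7, 23.7 and 27.5 in the tumorous discs. It was the only laminin gene that limma called on the deposited values, and the tumorous range lay below that of every other genotype. Against ap > GFP it fell 2.67-fold (log2 fold change -1.42, SE 0.36, adjusted p = 0.0202, limma), a call lost without ap > GFP replicate 1 (0.104) or 3 (0.124) or ap > Yki+NelfAi replicate 2 (0.0659) or 3 (0.0506). Against ap > Yki the log2 fold change was -0.92 (SE 0.32, adjusted p = 0.0744, limma). That difference passed the threshold without either ap > NelfAi library (adjusted p = 0.0115 and 0.0112, limma), which enter the fit only through the spread, and in DESeq2 (adjusted p = 0.0248).

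LanB1 (chr2L:7811438-7820771, plus strand, dm6) was at 107 and 120.1 in ap > GFP, 55.1 and 145 in ap > NelfAi, 87.7, 99.4 and 179.8 in ap > Yki, with 79.5, 64.5 and 83.5 in the tumorous discs. The tumorous values lay below those of ap > GFP and ap > Yki but not below those of ap > NelfAi. LanB1 was not called, with log2 fold changes of -0.58 (SE 0.41, adjusted p = 0.351, limma) against ap > GFP and -0.62 (SE 0.37, adjusted p = 0.276, limma) against ap > Yki. LanA (chr3L:6203831-6218022, minus strand, dm6) varied more within ap > NelfAi and within ap > Yki than between the genotype means. It was at 202 and 175 in ap > GFP, 49.4 and 322 in ap > NelfAi, 99.7, 101 and 526 in ap > Yki, with 163, 111 and 139 in the tumorous discs. The interval of its log2 fold change against ap > GFP ran from -2.33 to 1.4, so that neither a fall nor a rise of more than 2-fold was left out.

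trol (chrX:2470460-2545427, minus strand, dm6), which encodes perlecan, was the member with the widest spread. Its value was 107 and 61.7 in ap > GFP, 14.1 and 120.0 in ap > NelfAi, 55.4, 51.1 and 228 in ap > Yki, with 139.6, 101 and 105 in the tumorous discs. It was the 1 member whose mean was highest in the tumorous discs, 115 ± 21.2 (SD, n = 3), against 84.2 ± 31.8 (SD, n = 2) in ap > GFP, and these ranges overlapped on the deposited scale. The log2 fold change against ap > GFP was 0.49 (SE 0.85, adjusted p = 0.734, limma) and against ap > Yki 0.40 (SE 0.76, adjusted p = 0.761, limma), and trol was called in neither.

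trol and LanA have the longest transcripts of the 8 genes, 14.2 kb and 11.7 kb, and their values moved with the length trend of the library. Both were lowest in ap > NelfAi replicate 1, where long transcripts were low as a whole, and highest in ap > Yki replicate 3, where long transcripts were high. SPARC, with the shortest transcript at 1.14 kb, was instead highest in ap > NelfAi replicate 1. When each library's trend with length was removed, the ap > NelfAi values of trol came to 58.4 and 61 and those of LanA to 170.5 and 176. The SE of the log2 fold change against ap > GFP then fell from 0.83 to 0.28 for LanA and from 0.85 to 0.21 for trol, and neither was called. The same step set the ap > NelfAi values of the collagen IV chains further apart. Those of vkg went from 5.96 and 8.94 to 12.9 and 6.01, and those of Cg25C from 7.47 and 9.98 to 15.3 and 6.9. On that scale the tumorous trol values, 86.3 to 103, lay above the ap > GFP values of 59 and 83.5, and 68.0% of all genes had separate ranges in this pair of genotypes.

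**Figure D2:**
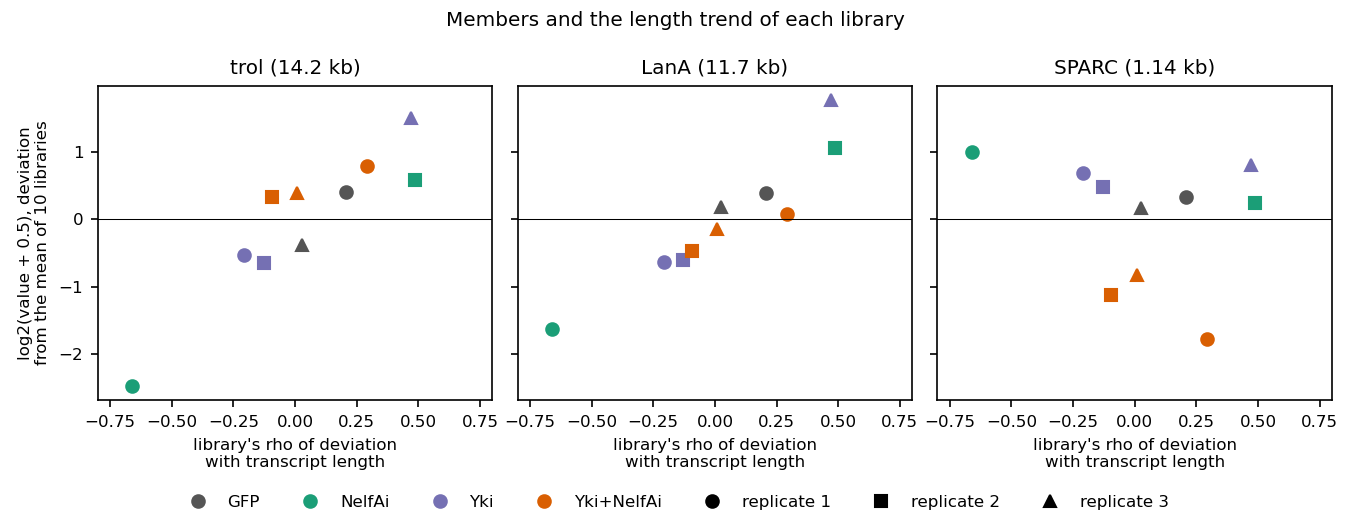
Deviation of trol, LanA and SPARC from their mean over the 10 libraries (y axis, log2(value + 0.5)) against the library's Spearman's rho of all genes' deviations with transcript length (x axis), with genotype as colour and replicate as marker shape. trol and LanA, at 14.2 and 11.7 kb, are lowest in the library with a rho of -0.66, whereas for SPARC, at 1.14 kb, the 3 tumorous libraries are the lowest whatever their rho.

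With the length trend removed, the members called in the tumorous discs grew from 3 to 5 against ap > Yki and from 4 to 7 against ap > NelfAi, while they stayed at 4 against ap > GFP. The share of all genes called lower grew too, to 14.4% against ap > Yki and to 16.8% against ap > GFP, and against ap > NelfAi 14.1% were lower and 12.2% higher. For the interaction described below it gave 4 members, where 3.60% of all genes were called lower. LanB2 was then called lower than in ap > Yki (log2 fold change -0.97, SE 0.12, adjusted p = 0.000348, limma), and so was LanB1 (-0.68, SE 0.14, adjusted p = 0.00505, limma). The changes of vkg, Cg25C and SPARC moved little, to -1.53, -1.73 and -1.94 against ap > Yki.

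Ndg, the nidogen gene, lies on chromosome arm 2R and differed from the other members in its order of genotypes. Its value was 12.5 and 9.44 in ap > GFP, 2.6 and 2.02 in ap > NelfAi, 25.8, 25.6 and 24 in ap > Yki, with 25.9, 10.01 and 14.4 in the tumorous discs. The genotypes ap > NelfAi, ap > GFP and ap > Yki formed separate ranges in rising order, and the tumorous discs spread over those of ap > GFP and ap > Yki. Of all genes, 22.7% had separate ranges in ap > GFP and ap > NelfAi, 41.1% in ap > GFP and ap > Yki, and 29.9% in ap > NelfAi and ap > Yki. In ap > Yki it was 2.25-fold above ap > GFP (log2 fold change 1.17, SE 0.34), which was not called (adjusted p = 0.0961, limma). This was called by DESeq2 (1.19, adjusted p = 0.0333), in limma on the 5 libraries of these genotypes alone (adjusted p = 0.0163) and without ap > Yki+NelfAi replicate 1 (adjusted p = 0.0321). The ap > NelfAi value was 4.07-fold below ap > GFP (log2 fold change -2.03, SE 0.37, adjusted p = 0.159, limma). That difference was called by DESeq2 (-2.23, adjusted p = 0.00154) and passed the threshold in limma without ap > NelfAi replicate 2 (-1.88, adjusted p = 0.0341), a fit in which 1 library stands for ap > NelfAi and the other genotypes supply the spread.

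In these comparisons with ap > GFP limma called few genes at all, 4.05% in ap > Yki (2.41% higher) and 0.0764% in ap > NelfAi (0.0509% lower). Of the 8 members, limma and edgeR called 0 in each and DESeq2 called 1. The shares of all genes are from limma, so they give no background for the DESeq2 calls. Ndg was in each the 1 member with an unadjusted p under 0.05 in limma. Of the 7858 genes tested, 1400 had such a p in ap > Yki and 301 in ap > NelfAi. In ap > Yki the members' share was therefore not above that of all genes. Against ap > Yki, the tumorous discs had a log2 fold change of Ndg of -0.68 (SE 0.30, adjusted p = 0.153, limma), which passed the threshold without ap > Yki+NelfAi replicate 1 (-1.04, adjusted p = 0.0217).

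**Figure D3:**
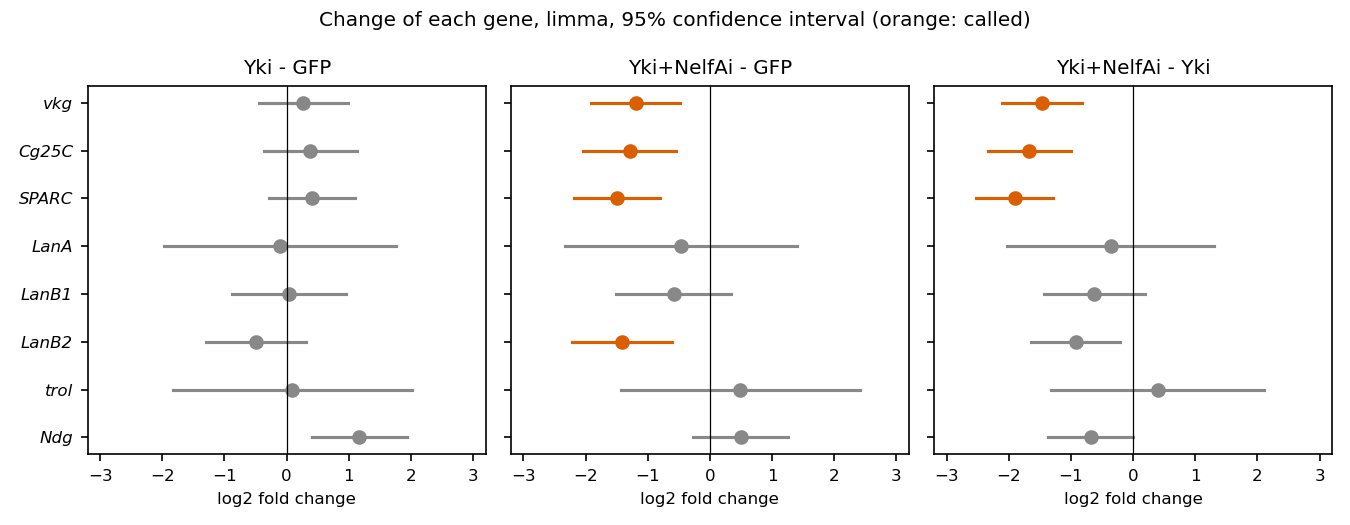
Log2 fold change of each gene with its 95% confidence interval from limma in ap > Yki against ap > GFP, ap > Yki+NelfAi against ap > GFP and ap > Yki+NelfAi against ap > Yki, with called genes in orange. The intervals of vkg, Cg25C and SPARC lie below 0 in both tumorous comparisons, and LanA and trol have the widest intervals.

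Side by side over the 8 genes, the median log2 fold change was -0.89 in the tumorous discs against ap > GFP, where the median of all genes was 0.03, and -0.80 against ap > Yki, where it was 0.02. In ap > Yki against ap > GFP the members' median was 0.18 and that of all genes -0.01, and in ap > NelfAi it was -0.36 and -0.02. The tumorous range lay wholly below that of ap > GFP for 6 members, all but trol and Ndg, and 64.3% of all genes had such separate ranges in either direction. It lay below that of ap > Yki for 5 members, vkg, Cg25C, LanB1, LanB2 and SPARC, against 43.4% of all genes, and below that of ap > NelfAi for 4, vkg, Cg25C, LanB2 and SPARC, with Ndg above it, against 42.3% of all genes. These comparisons share the tumorous or the control libraries, so they are not independent of each other.

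The comparison with the Nelf-A RNAi alone gave 4 called members, with 17.5% of all genes called (9.11% lower and 8.36% higher). SPARC fell 3.64-fold in the tumorous discs relative to ap > NelfAi (log2 fold change -1.86, SE 0.31, adjusted p = 0.00336, limma) and Ndg rose 5.74-fold (2.52, SE 0.34, adjusted p = 0.00114, limma), and both were called without any one library. vkg fell 2.3-fold (-1.20, SE 0.32, adjusted p = 0.0295, limma) and Cg25C 2.25-fold (-1.17, SE 0.33, adjusted p = 0.0399, limma). The call of vkg was lost without ap > NelfAi replicate 2 (0.0849) or any of the ap > Yki+NelfAi replicates 1 to 3 (0.0859, 0.0864 and 0.0515). That of Cg25C was lost without the same libraries (0.0949, 0.118, 0.0942 and 0.0662), without either ap > GFP library (0.0642 and 0.064) and without ap > Yki replicate 1 (0.0601). LanB2 had a log2 fold change of -1.03 (SE 0.36, adjusted p = 0.0807, limma), which passed the threshold without ap > NelfAi replicate 1 (-1.65, adjusted p = 0.00583), and trol one of 1.45 (SE 0.85, adjusted p = 0.284), which did so without ap > NelfAi replicate 2 (2.97, adjusted p = 0.0129). In each of these fits ap > NelfAi is 1 library whose spread is assumed to be that of the remaining genotypes, and the one left for trol is the library with a length rho of -0.66, where trol was at 14.1.

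Whether the RNAi construct had another effect with Yki than without it was tested as an interaction, for which 1.26% of all genes were called (0.942% lower). SPARC was the 1 member called. The construct went with a log2 change of 0.37 (SE 0.34) in discs without Yki and of -1.90 (SE 0.28) in discs with it, a difference of -2.27 (SE 0.44, adjusted p = 0.0429, limma). The difference kept its sign without any one library, at -2.65 to -1.90, but it was called only without ap > NelfAi replicate 2 (adjusted p = 0.0117) or ap > Yki+NelfAi replicate 3 (0.0458). Without the others the adjusted p was 0.174 and 0.179 (ap > GFP replicates 1 and 3), 0.0603 (ap > NelfAi replicate 1), 0.127, 0.101 and 0.0722 (ap > Yki replicates 1, 2 and 3), and 0.0509 and 0.0867 (ap > Yki+NelfAi replicates 1 and 2). vkg and Cg25C had differences of -1.46 (SE 0.45) and -1.55 (SE 0.47), with adjusted p = 0.167 and 0.163 in limma. DESeq2 called both (adjusted p = 0.0427 and 0.0364). The genotypes with UAS Yki also differed in yki level, as given above. The part of yki level in these interactions cannot be told apart from that of the construct.

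Levels can be compared between genes only per length of transcript. Per kb of the longest transcript, SPARC was the highest member in ap > GFP, at 37.4 ± 2.99 (SD, n = 2), followed by LanB1 at 18.2 ± 1.5, LanA at 16.1 ± 1.63 and LanB2 at 12.1 ± 0.391. trol was at 5.91 ± 2.23, Ndg at 2.28 ± 0.453, Cg25C at 1.55 ± 0.199 and vkg at 1.14 ± 0.227, so the collagen IV chains were the lowest. In the tumorous discs SPARC came to 13.5 ± 4.37 per kb (SD, n = 3), near LanB1 at 12.2 ± 1.61 and LanA at 11.8 ± 2.2, and vkg and Cg25C were again the lowest at 0.453 ± 0.0652 and 0.589 ± 0.107. The 8 genes together took 0.105% and 0.0939% of the reads on genes in ap > GFP and 0.0727%, 0.0496% and 0.0648% in the tumorous discs, and up to 0.192% in ap > Yki replicate 3.

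Ratios within a library show how the subunits of one protein moved relative to each other. The ratio of vkg to Cg25C per kb stayed between 0.638 and 0.856 in all 10 libraries, although both levels varied several-fold. The ratio of the gamma chain LanB2 to the beta chain LanB1 was 0.69 and 0.643 in ap > GFP, 0.676 and 0.611 in ap > NelfAi, 0.497, 0.461 and 0.425 in ap > Yki, and lowest in the tumorous discs at 0.37, 0.391 and 0.351. The ranges of the control, the ap > Yki discs and the tumorous discs did not overlap, while those of ap > GFP and ap > NelfAi did. The log2 ratio was lower by 0.53 in ap > Yki than in ap > GFP and by a further 0.31 in the tumorous discs than in ap > Yki, each with p = 0.1 in a two-sided exact permutation test. This is the smallest p that 3 libraries against 2 or 3 can give, and it came to 0.389 when adjusted over the 35 tests of such ratios and shares, so no difference of these ratios passed the threshold. Separate ranges are common at this number of libraries, since 41.1% to 64.3% of single genes had them in these comparisons.

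**Figure D4:**
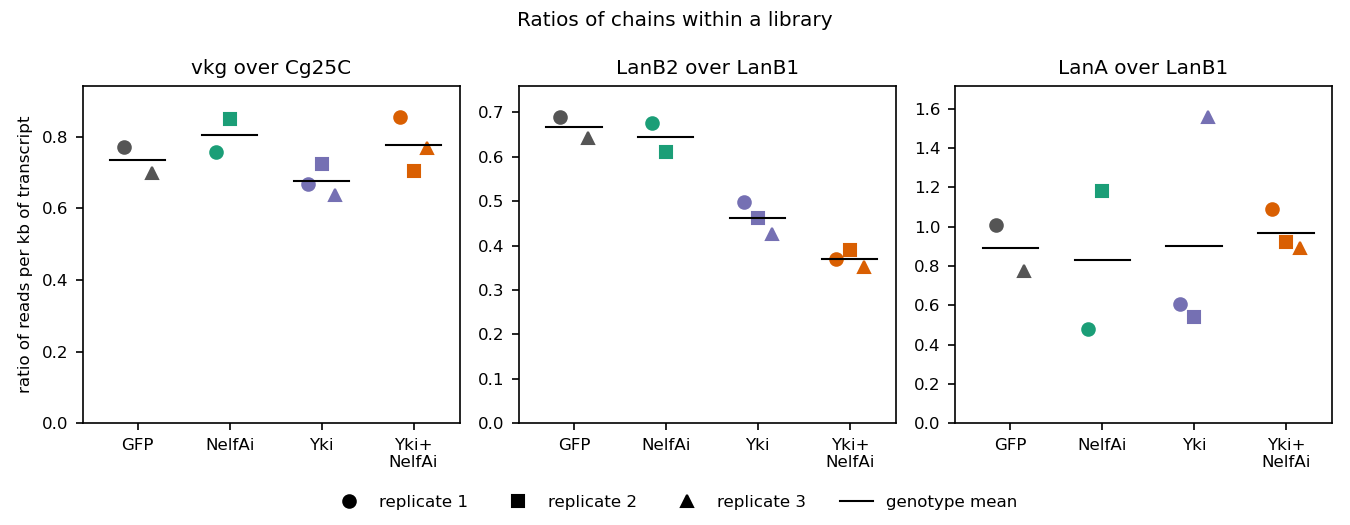
Ratio of reads per kb of transcript between subunits in every library, by genotype, with the genotype mean as a line and y axes from 0. vkg over Cg25C stays between 0.638 and 0.856, LanB2 over LanB1 lies at 0.643 to 0.69 in ap > GFP, 0.425 to 0.497 in ap > Yki and 0.351 to 0.391 in ap > Yki+NelfAi, and LanA over LanB1 spreads from 0.478 to 1.56 with no separation of genotypes.

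The alpha to beta ratio, LanA over LanB1, ranged from 0.478 to 1.56 with overlapping genotypes. Per kb, SPARC over the mean of vkg and Cg25C came to 28 ± 2.21 (SD, n = 2) for ap > GFP and 41.6 ± 24 (SD, n = 2) for ap > NelfAi. It came to 30.2 ± 8.65 (SD, n = 3) for the ap > Yki discs and 25.4 ± 4.74 (SD, n = 3) for the tumorous ones, and the ranges of all genotypes overlapped. The collagen IV chains took 0.00103% ± 0.000186 (SD, n = 3) of the tumorous discs' reads, 0.0037% ± 0.00175 (SD, n = 3) of those of ap > Yki and 0.00316% ± 0.00046 (SD, n = 2) of those of ap > GFP. The tumorous share was lower by 1.63 on the log2 scale than that of ap > GFP and by 1.76 than that of ap > Yki, each with p = 0.1 in the exact test.

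Across the 10 libraries, Pearson's r of log2(value + 0.5) was 0.99 between vkg and Cg25C, on the deposited scale and with the length trend removed. Between vkg and SPARC it was 0.86 and 0.95 on these scales, and between LanA and LanB1 0.90 and 0.80. trol and LanA had an r of 0.86 on the deposited scale and of 0.00 once the length trend was removed. Ndg had r between -0.24 and 0.40 with the other 7 members on the deposited scale, and between -0.40 and 0.54 with the length trend removed. These values describe 10 libraries that share genotypes and length trends, and no test was made of them. By the same measure, among 6057 genes with a mean value of at least 5, the genes most like the mean of the 8 members were Sema-5c (0.98), Mef2 (0.97), Sap130 (0.96), Cht7 (0.95) and CG3280 (0.95). The nearest gene to each member was Eip74EF for vkg (0.95), CG9850 for Cg25C (0.94), CG1815 for LanA (0.97), wake for LanB1 (0.99), lea for LanB2 (0.99), Dys for trol (0.99), qkr58E-3 for Ndg (0.96) and CG11686 for SPARC (0.98). These are on the deposited scale. With the length trend removed, another gene was nearest for every member. It was vri for vkg and Cg25C (0.965 each), CG5946 for LanA (0.926), miple for LanB1 (0.958) and CG14301 for LanB2 (0.994). For trol it was wdp (0.946), for Ndg CG11788 (0.915) and for SPARC Eip74EF (0.974). Near the mean of the members, mRpL27 (0.961) and CG8306 (0.956) then took the places of Cht7 and CG3280.

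Markers of other cells of the disc and the larva moved in part with these genes. The 11 markers of adepithelial myoblasts in the table, precursors of the flight muscles that lie under the notum epithelium, summed to 319 to 326 in ap > GFP, 272 to 329.6 in ap > NelfAi, 159 to 247 in ap > Yki and 63.5 to 79.9 in the tumorous discs. Of these, 7 of 11 were called lower in the tumorous discs than in ap > GFP and 6 of 11 than in ap > Yki. The shares of all genes called lower were 12.1% and 10.2%. Ama made up a large part of the myoblast sums, with means of 177 in ap > GFP, 67.9 in ap > Yki and 11.4 in the tumorous discs. Mef2, named above, is on this list but was not called itself (log2 fold change -0.35, adjusted p = 0.508 against ap > GFP, limma). The 14 muscle markers summed to 360.1 to 692 in ap > GFP, 129 to 219.8 in ap > Yki and 99.1 to 179.9 in the tumorous discs, and the 7 salivary gland markers to 110.2 to 396, 27.1 to 53.1 and 17.8 to 24.8. In ap > NelfAi, where vkg, Cg25C and SPARC overlapped with ap > GFP, muscle markers summed to 348 to 1382 and salivary gland markers to 97.9 to 182. The part of these cells in the lower vkg, Cg25C, LanB2 and SPARC was not tested, and fewer cells of a type cannot be told apart from less RNA per cell in bulk samples.

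The larval fat body and the hemocytes are the main known producers of collagen IV. The 9 fat body markers in the table summed to 41.7 to 46.8 in ap > GFP and 52.1 to 295 in ap > NelfAi. They summed to 23.2 to 181 in ap > Yki and 19.6 to 52.3 in the tumorous discs. By mean sum they fell from ap > NelfAi (173) over ap > Yki (108) and ap > GFP (44.3) to the tumorous discs (33.3). The means of SPARC had the same order (57.3, 57.1, 42.8 and 15.4), with those of ap > NelfAi and ap > Yki nearly equal. Neither collagen IV chain had this order, since the means of vkg and Cg25C were highest in ap > Yki. The fat body ranges of ap > GFP and the tumorous discs overlapped. None of the 8 tested was called in the tumorous discs against ap > GFP, where 22.1% of all genes were called. The 13 hemocyte markers summed to 102 to 108 in ap > GFP and 99.3 to 141 in ap > NelfAi. In ap > Yki they summed to 93.8 to 155 and in the tumorous discs to 104 to 145. Against ap > GFP, atilla was called higher in the tumorous discs (2.48, adjusted p = 0.00312, limma) and ush lower (-1.64, adjusted p = 0.0452, limma). Hml, a hemocyte marker named after its values were seen, was at 3.51 to 10.6 in 9 libraries and at 30.4 in ap > Yki replicate 3. That library had the highest vkg, Cg25C, LanA, LanB1 and trol, and its long transcripts were high as a whole. Of the other hemocyte markers, Pxn (25.9) and eater (2.28) were highest there too, and PPO1 (0.511) was lowest there. The wing disc epithelium markers summed to 922 to 1047 in ap > GFP and 731 to 1149.9 in the tumorous discs, with 8 of 16 called lower and 1 higher. Of all genes, 12.1% were called lower in this comparison and 22.1% in either direction. Markers of the trachea summed to 938 to 1179 in ap > GFP and 1389 to 1537 in the tumorous discs. Of the 9 tested, however, serp and verm were called higher and btl and obst-A lower, where 22.1% of all genes were called. Those of neurons and glia summed to 118 to 119.7 and 169.6 to 224, and nrv2 was the 1 of 3 tested that was called, higher. The part of these in the members' values was not tested.

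Among 13 tested genes of other basement membrane and matrix proteins, 2 were called lower and 1 higher in the tumorous discs than in ap > GFP, a share near the 22.1% of all genes called in either direction, with a median log2 fold change of -0.12. NetA, the secreted guidance cue netrin A, fell from 6.33 ± 0.816 (SD, n = 2) to 0.325 ± 0.241 (SD, n = 3), with a log2 fold change of -3.09 (SE 0.35, adjusted p = 0.000404, limma). Mp, the collagen XV/XVIII homologue, fell from 9.53 ± 1.09 to 0.706 ± 0.284 (-3.08, SE 0.49, adjusted p = 0.00211, limma), and the gene called higher was mfas. Both NetA and Mp were intermediate in ap > Yki, at 1.82 ± 0.385 and 3.81 ± 0.857 (SD, n = 3), and fell against it as well, as did Tig and Pxn, so that 4 of 13 were called lower and none higher, where 10.2% of all genes were called lower. Tig, an integrin ligand of muscle attachment, and Pxn, the matrix enzyme peroxidasin that cross-links collagen IV and is also on the hemocyte list, had their highest means in ap > Yki. Tig was at 1.69 ± 0.0457 in ap > GFP, 4.99 ± 1.32 in ap > Yki and 1.02 ± 0.174 in the tumorous discs (against ap > Yki -1.83, adjusted p = 0.00188, limma), and Pxn at 6.47 ± 1.38, 19.3 ± 5.78 and 6.34 ± 2.92 (-1.60, adjusted p = 0.0143, limma). wb, the other laminin alpha chain, was at 11.2 ± 1.6 in ap > GFP and 17.9 ± 9.66 in the tumorous discs and was not called (adjusted p = 0.53, limma).

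Of 18 tested genes for collagen IV synthesis and secretion, 4 were called lower in the tumorous discs than in ap > GFP and none higher, where 12.1% of all genes were called lower and 22.1% in either direction. The list's median log2 fold change was -0.42, and 2 were lower than in ap > Yki, where 10.2% of all genes were. Grasp65, a Golgi stacking protein, fell from 37.8 ± 1.07 to 15.1 ± 1.77 (log2 fold change -1.30, SE 0.25, adjusted p = 0.00597, limma). Pdi, a protein disulfide isomerase of the endoplasmic reticulum, fell from 1193 ± 63 to 574 ± 15.2 (-1.05, SE 0.18, adjusted p = 0.00338, limma). The cargo receptor gene eca (-0.97, adjusted p = 0.0287, limma) and the COPII coat gene Sec23 (-0.65, adjusted p = 0.0373, limma) were the others. The enzymes that hydroxylate collagen were not called, with log2 fold changes of 0.15 for PH4alphaEFB (adjusted p = 0.669, limma) and -0.20 for Plod (adjusted p = 0.532, limma), nor was Tango1, which loads collagen IV for export (-0.70, adjusted p = 0.184, limma). With the length trend removed, 9 of the 18 were called lower than in ap > GFP, where 16.8% of all genes were, Tango1 among them (-0.68, adjusted p = 0.00558, limma).

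The 20 tested genes of matrix receptors and their adaptors held 2 called higher and 2 called lower than in ap > GFP, a share near the 22.1% of all genes, with a median log2 fold change of 0.23. Pax, the focal adhesion adaptor paxillin, rose from 55.2 ± 2.13 in ap > GFP to 133 ± 16.9 in the tumorous discs, with 78 ± 3.51 in ap > Yki (against ap > GFP 1.26, SE 0.17, adjusted p = 0.000924, limma). The integrin-linked kinase gene Ilk rose by 0.92 on the log2 scale (adjusted p = 0.0103, limma). The integrin alpha chain gene scb fell from 84.1 ± 24.7 to 33.5 ± 4.14 (-1.29, adjusted p = 0.0454, limma), and the receptor gene Ddr fell by 1.87 on the log2 scale (adjusted p = 0.0165, limma), from 2.56 ± 0.728 to 0.338 ± 0.184. mys, the integrin beta chain, was at 74 ± 1.23 in ap > GFP and 85 ± 8.47 in the tumorous discs and was not called (adjusted p = 0.654, limma), and Dg, the laminin and perlecan receptor dystroglycan, had a log2 fold change of -1.02 (adjusted p = 0.103, limma). With the length trend removed Dg was called lower (-1.002, adjusted p = 0.00177, limma), where 16.8% of all genes were. On that scale the genes if (0.74, adjusted p = 0.00847, limma) and stck (0.619, adjusted p = 0.0178, limma) were called higher.

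Of 9 tested matrix proteases, inhibitors and cross-linkers, 2 were called lower and 1 higher in the tumorous discs than in ap > GFP, where 22.1% of all genes were called, with a median log2 fold change of -0.18. Mmp2, a membrane-anchored matrix metalloprotease, fell from 17.7 ± 1.0 in ap > GFP to 2.26 ± 0.244 in the tumorous discs (-2.73, SE 0.47, adjusted p = 0.00337, limma), with 8.74 ± 0.955 in ap > Yki. Mmp1, the other matrix metalloprotease of the fly, was at 75.6 ± 10.03 in ap > GFP, 80.6 ± 24.8 in ap > Yki and 111 ± 24.2 in the tumorous discs and was not called (0.54, SE 0.69, adjusted p = 0.635, limma). CG5639 fell by 2.86 on the log2 scale (adjusted p = 0.00295, limma), and the transglutaminase gene Tg, which encodes a cross-linking enzyme, rose by 2.20 (adjusted p = 0.00211, limma), from 1.1 ± 0.255 to 7.15 ± 3.12. The lysyl oxidase gene lox was lower than in ap > Yki (-1.78, adjusted p = 0.0149, limma), at 0.661 ± 0.672 against 3.16 ± 0.951.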

How the data were processed

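RNA-seq of wing imaginal discs was analysed in 10 libraries, grouped by the genotype and replicate number of their labels. The authors aligned reads with HISAT and counted them per gene, and the deposited signal is the reads on a gene divided by a factor of the library. The submitters' processing notes name the dm6 build, HISAT, StringTie, bcl2fastq and edgeR. Within 0.001 read, 100% of values were whole multiples of 1 read, and whole reads were recovered from them. The 5 entries for reads on no gene, 28.4% to 36.5% of a library, were left out, as were 5 tables of the authors' own comparisons (fold changes and p-values). Of 7987 genes, 7864 matched 1 gene of the Ensembl annotation.

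limma 3.58.1 (with a trend of the variance) was run on log2(value + 0.5) in 1 model of all 10 libraries with genotype as the factor, on the 7858 genes that reached a value of 1 in 2 or more libraries, with Benjamini-Hochberg adjustment over all of them. Fold changes are on this scale, which understates those of low genes. A call needed an adjusted p under 0.05 and a change of 1.5-fold. Ratios and shares of reads were tested with a two-sided exact permutation test. The alternatives were edgeR 4.0.16 and DESeq2 1.42.0 on the recovered reads, RLE and TMM scaling, pseudocounts of 0.1 and 1, no filter, no minimum fold, only the genotypes compared, a replicate block, removal of the trend with transcript length from each library (lowess, span 0.3) and each library left out. A fit without both ap > NelfAi libraries was added after seeing the data. The tests were checked on simulated reads. The members, gene lists and tests were chosen with earlier results of these data known.

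Genes named were every member, Nelf-A and yki, the genes with the most similar profiles, and up to 4 genes a list with the largest changes called in the tumorous discs. The genes wb, PH4alphaEFB, Plod, Tango1, mys, Dg, if, stck, Mmp1, mfas, Ama, Hml, eater, PPO1, atilla, ush, serp, verm, btl, obst-A and nrv2 were named outside this rule, after their values were seen. Reads were not stated to be counted by strand, so overlapping genes cannot be told apart.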

Additional observations from a re-analysis of the deposited data

Results flagged for a closer look

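For SPARC, the change that went with the Nelf-A RNAi construct differed between discs with and without UAS Yki. The log2 change was -1.90 with Yki and 0.37 without it, a difference of -2.27 in the interaction term of limma (SE 0.44, adjusted p = 0.0429). All 3 ap > Yki+NelfAi values, 10.1 to 19.95, lay below the ap > Yki values of 50.2 to 62.8, whereas the ap > NelfAi values of 72 and 42.6 overlapped with the ap > GFP values of 45.2 and 40.4. The call was lost without any one of 8 of the 10 libraries. The yki level was also higher in ap > Yki+NelfAi (8143 to 11377) than in ap > Yki (2637 to 4007). Its part in the SPARC difference cannot be told apart from that of the construct. No group was large enough for a test of single libraries as outliers.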

How the results depend on the processing

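Of the 12 calls of a member in a comparison, all kept their sign in all 246 alternative fits, and the calls of vkg, Cg25C and SPARC against ap > Yki and of SPARC and Ndg against ap > NelfAi passed the threshold in each. Over all 48 pairs of member and comparison, 931 of 976 fits kept the sign. The number of members called in the tumorous discs against ap > GFP was 4, with 0 to 4 when a library was left out. Against ap > Yki it was 3, with 4 in DESeq2, in a fit of these genotypes alone and without both ap > NelfAi libraries, 5 once the length trend was removed and 3 to 4 without a library. Against ap > NelfAi it was 4, with 5 in edgeR and in DESeq2, 2 in a fit of these genotypes alone, 7 without the length trend and 2 to 5 without a library. The numbers in ap > Yki and ap > NelfAi against ap > GFP were 0 each, with 1 each in DESeq2, 1 for ap > Yki in a fit of these genotypes alone and 0 to 1 without a library. For the interaction it was 1, with 3 in DESeq2, 4 without the length trend and 0 to 1 without a library. With the replicate number as a block the numbers were 2 against ap > GFP (vkg adjusted p = 0.0714 and Cg25C 0.059 in limma), 2 against ap > NelfAi and 0 for the interaction (SPARC -2.45, adjusted p = 0.12). Same-numbered libraries had deviations with a median correlation of -0.21 (12 pairs, -0.43 to 0.59, 4 over 0.1), so the numbers were not taken to pair them. A search of promoters for motifs was not run. The low read numbers of vkg, Cg25C and Ndg, down to 31 reads, limit their precision.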
